A study of Mus musculus with 6 samples.

Results

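The hypoxia response and glycolysis genes are 34 named genes of the mouse that serve or answer the sensing of low oxygen: 15 genes of glycolytic enzymes and 19 other genes, most of them known targets of the hypoxia-inducible factors (HIF). They were found by gene symbol among the 34665 rows of a table of read counts, with Ero1l under its current symbol Ero1a. Aldoa had a further row with the same symbol, so the 34 genes took 35 rows, and all 35 passed the filter on low counts that left 16924 rows for testing. The samples were tumours of B16, a transplantable mouse melanoma cell line, labelled wild type. The RT_ICI group (3 libraries, replicates 1, 2 and 4) was given radiation and an immune checkpoint inhibitor, and the ICI group (3 libraries, replicates 1, 2 and 3) the inhibitor alone, so every sample had the inhibitor. The inhibitor's target, the radiation dose, the age of the mice, the time of harvest and the position of the tumour relative to the beam are not given in the sources used. Nothing in the labels ties each library to an animal of its own, so a p-value here covers the spread among these libraries, which may be technical.

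In cells with enough oxygen, prolyl hydroxylases of the Egln family mark the HIF alpha subunits, which are then bound by the Vhl protein and degraded. When oxygen falls, the alpha subunits (Hif1a, and Epas1 in some cell types) persist, pair with Arnt and switch on genes whose control regions hold a short motif, the hypoxia response element. These targets import glucose, turn it to lactate through glycolysis, export acid, restrain the mitochondria and modify collagen. In solid tumours they are widely used as a sign of poor oxygen supply. The activity of HIF is set mainly by the stability of its protein, which RNA counts do not measure.

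The core of the hypoxia response element is ACGTG or, less often, GCGTG, read on either strand. RefSeq start sites on GRCm38.p6 gave 46 windows of 300 bases (250 before to 50 after the start) for 31 of the 34 genes, and none for Epas1, Bnip3l and Ndrg1. ACGTG stood in 60.9% of the 46 windows, against 19.6% of all 32851 windows of that length and 24.7% of the windows of tested genes. GCGTG stood in 54.3%, against 32.4% and 48.0%, and CACGTG, the E-box that holds ACGTG on both strands, in 10.9%, against 7.15% and 9.53%. In the 26 windows of the glycolytic enzymes the shares were 46.2% for ACGTG, 53.8% for GCGTG and 7.69% for CACGTG. Some windows of the same gene overlap, as for Eno1, Aldoa and Pfkm, and each was counted. The 4 windows shown belong to Pfkfb4, the only member called between the groups, Gpi1, the enzyme with the largest positive fold change, and Pgk1 and Ldha. Pgk1 and Ldha were among the 9 of 16 enzyme rows that lay lowest in RT_ICI replicate 2. Capitals mark ACGTG and GCGTG on either strand (CACGT and CACGC when read on the printed strand). The windows are Pfkfb4 at chr9:108991652-108991951 (plus strand), Gpi1 at chr7:34230287-34230586 (minus strand), Pgk1 at chrX:106186850-106187149 (plus strand) and the first of 2 Ldha windows at chr7:46845554-46845853 (plus strand).
Pfkfb4: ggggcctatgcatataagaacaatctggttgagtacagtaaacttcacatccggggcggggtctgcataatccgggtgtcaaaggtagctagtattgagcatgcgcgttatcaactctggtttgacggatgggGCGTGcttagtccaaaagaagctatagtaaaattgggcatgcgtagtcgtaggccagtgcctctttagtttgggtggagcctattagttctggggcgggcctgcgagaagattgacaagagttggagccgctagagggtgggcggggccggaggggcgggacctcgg
Gpi1: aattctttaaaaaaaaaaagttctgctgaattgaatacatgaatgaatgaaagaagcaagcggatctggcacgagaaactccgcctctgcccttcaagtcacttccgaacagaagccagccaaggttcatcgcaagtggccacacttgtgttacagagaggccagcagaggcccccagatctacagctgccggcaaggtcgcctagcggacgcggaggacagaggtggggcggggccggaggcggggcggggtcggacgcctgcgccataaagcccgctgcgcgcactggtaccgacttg
Pgk1: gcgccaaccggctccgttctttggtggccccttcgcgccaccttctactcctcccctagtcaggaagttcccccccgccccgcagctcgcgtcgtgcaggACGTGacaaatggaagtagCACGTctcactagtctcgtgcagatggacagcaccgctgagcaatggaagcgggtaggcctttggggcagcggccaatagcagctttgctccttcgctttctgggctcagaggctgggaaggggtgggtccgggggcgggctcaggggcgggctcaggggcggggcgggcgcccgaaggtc
Ldha: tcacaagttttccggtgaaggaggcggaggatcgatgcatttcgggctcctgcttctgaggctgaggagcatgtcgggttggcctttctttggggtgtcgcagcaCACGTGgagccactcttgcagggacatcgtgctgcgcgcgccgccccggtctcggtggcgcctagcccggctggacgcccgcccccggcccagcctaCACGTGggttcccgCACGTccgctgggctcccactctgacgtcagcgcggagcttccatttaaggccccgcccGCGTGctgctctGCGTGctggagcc
The Ldha window held 5 matches to ACGTG, of which 4 lay in 2 copies of CACGTG, and 2 to GCGTG. The Pgk1 window held 2 matches to ACGTG and 0 to GCGTG. The Pfkfb4 window held 0 matches to ACGTG and 1 to GCGTG, and the Gpi1 window held 0 of either. The 24 members with ACGTG in a window had a median log2 fold change between the groups of -0.09. The 7 with a window and no ACGTG, some of which hold GCGTG, had one of -0.06. The 4 windows shown do not stand for the rest. Tpi1 (log2 fold change -0.38) had 0 matches to ACGTG, and Aldoa (0.39) had ACGTG in 2 of its 3 windows. A match is a stretch of letters and not a measured binding site.

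Totals lay between 22543721 and 45624013 counts in RT_ICI and between 32201558 and 43109047 in ICI. Levels are given as CPM, the count scaled to library size with TMM factors. A fold change is RT_ICI over ICI, and a call means that edgeR's quasi-likelihood test gave an adjusted p (Benjamini-Hochberg, over all tested rows) under 0.05. Every adjusted p that names no other tool is from that test. The 7 melanoma markers checked (Pmel, Tyr, Mlana, Dct, Tyrp1, Sox10 and Mitf) had counts in all 6 libraries, with summed levels of 10072 to 14379 CPM in RT_ICI and 13340 to 15180 CPM in ICI. RT_ICI replicate 1 stood apart from the other libraries: 29748 rows of the table held counts there, and 22763 to 24891 in each of the others. Mitochondrially encoded genes held 11.5% to 14.7% of counts in RT_ICI and 4.39% to 5.01% in ICI, and leaving them out before scaling ended no call of a member. The 9 adipocyte markers checked had summed levels of 269, 157 and 191 CPM in RT_ICI replicates 1, 2 and 4, against 55.1, 44.5 and 84.9 CPM in ICI replicates 1, 2 and 3. The summed levels did not overlap between the groups, and 3 of the 8 markers tested were called higher, beside 4.46% of all tested rows. Single markers separated less well: 7, 8 and 8 of the 8 lay above their own mean over the libraries in RT_ICI, against 0, 0 and 4 in ICI. None of the 9 was at 0 in RT_ICI, while Plin1, Cidec and Lep were at 0 in ICI replicates 1 and 2 and Cfd in ICI replicate 2.

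Of these genes, Pfkfb4 alone was called between the treatments. Pfkfb4, which tunes the flow through glycolysis, rose 2.23-fold in RT_ICI, and the other 34 rows were not called in either direction. Hif1a stood at 128 ± 20.4 CPM in RT_ICI and 183 ± 7.34 CPM in ICI (SD, n = 3 each), and its adjusted p was 0.0636. Over the 35 rows 15 had a positive and 20 a negative fold change, with a median log2 fold change of -0.06 against 0.01 over all 16924 tested rows. The share of members called higher was 1 of 35, beside 4.46% of all tested rows, and the share called lower 0 of 35, beside 4.72%. At an unadjusted p under 0.05 there were 3 rows higher (Pfkfb4, Gpi1 and Aldoa) and 2 lower (Hif1a and P4ha1) in edgeR, beside 15.7% and 15.8% of all tested rows. DESeq2 called 1 higher (Pfkfb4), beside 10.3% of all rows, and 1 lower (Hif1a), beside 10.1%, and limma-voom 1 higher (Pfkfb4), beside 3.75%, and 0 lower, beside 4.08%. The 3 RT_ICI libraries lay wholly above the 3 ICI libraries for 3 rows (Pfkfb4, Gpi1 and Aldoa) and wholly below them for 4 (Hif1a, P4ha1, Pgam1 and the second Aldoa row), beside 17.8% and 19.4% of all tested rows. With a correction for transcript length and GC content 1 member was called higher (Pfkfb4), beside 1.54% of rows, and 0 lower, beside 2.43%. With no filter on low counts 1 was called higher, beside 3.23%, and 2 lower (Hif1a and P4ha1), beside 4.35%. In bulk tumour RNA, fewer cells of a kind and less RNA per cell cannot be told apart.

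**Figure D1:**
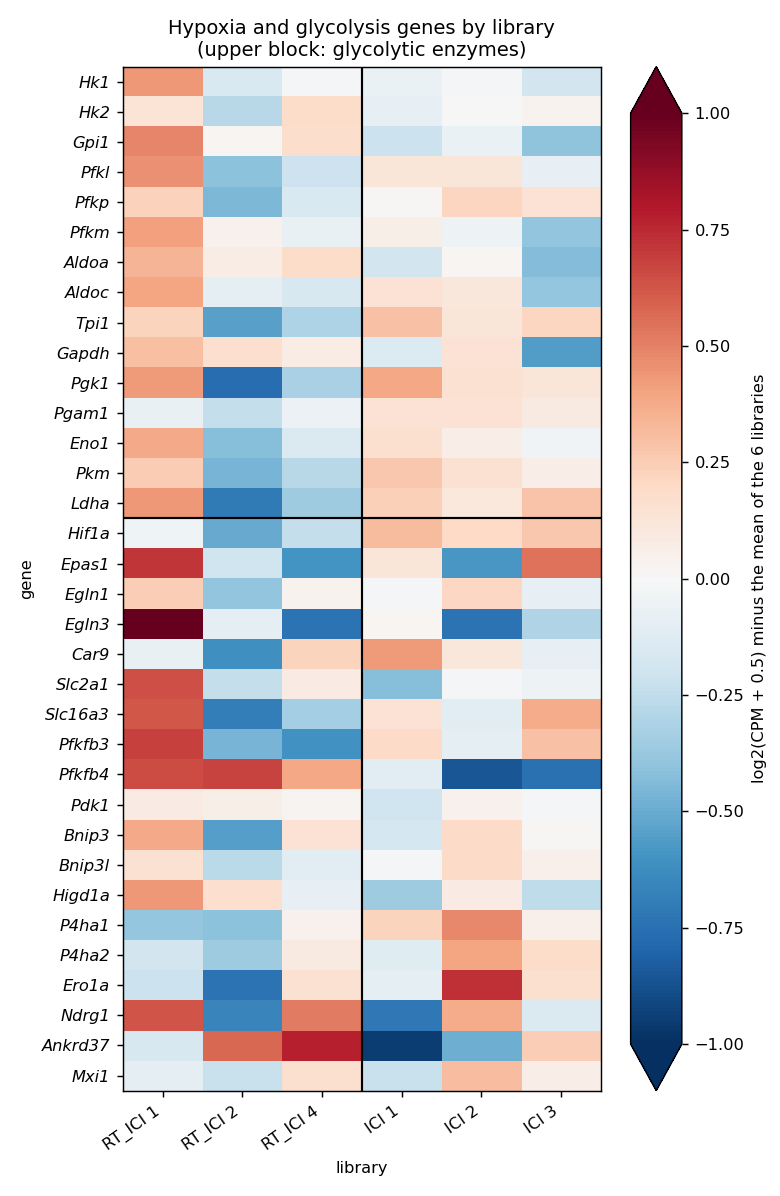
Each row is a gene and each column a library, RT_ICI on the left and ICI on the right of the vertical line; the colour is log2(CPM + 0.5) minus the gene's mean over the 6 libraries, and the horizontal line parts the glycolytic enzymes from the other genes. RT_ICI replicate 1 is the highest library for 11 of 16 enzyme rows (the second Aldoa row is not drawn), and RT_ICI replicate 2 the lowest for 9.

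None of the glycolytic enzymes was called between the treatments, and their fold changes had both signs. Of the 15 enzyme genes 7 had a positive and 8 a negative log2 fold change, between -0.38 and 0.46, with a median of -0.06 and adjusted p from 0.116 to 0.879. By edgeR 0 were called, beside 4.46% of all tested rows called higher and 4.72% lower. DESeq2 also called 0, beside 10.3% and 10.1%, and limma-voom 0, beside 3.75% and 4.08%. At an unadjusted p under 0.05 edgeR gave 2 higher (Gpi1 and Aldoa) and 0 lower, beside 15.7% and 15.8% of all tested rows. The 16 enzyme rows held 2.32%, 1.66% and 1.88% of all counts in RT_ICI replicates 1, 2 and 4, against 2.56%, 2.40% and 2.33% in ICI replicates 1, 2 and 3. On that scale, in which the mitochondrially encoded genes took a larger share of the counts in RT_ICI than in ICI, all RT_ICI libraries lay below all ICI libraries. This holds for the 16 rows only, which leave out 86 near-identical copies of Gapdh described below. The copies held 4.51%, 4.28% and 4.64% of counts in RT_ICI, against 4.57%, 4.77% and 3.61% in ICI. That is more than the 16 rows held in each library. After TMM scaling the summed level of the 16 rows was 26996, 17073 and 19760 CPM in RT_ICI, against 23685, 22934 and 21028 CPM in ICI. RT_ICI replicate 1 was then the highest of the 6. The median enzyme deviated from its own mean over the libraries by 0.36, -0.26 and -0.15 on the log2 scale in RT_ICI replicates 1, 2 and 4, and by 0.12, 0.12 and -0.00 in ICI. With upper-quartile scaling the median log2 fold change of the 16 rows was 0.02 in place of -0.08, and without RT_ICI replicate 2 it was 0.10.

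The first steps of glycolysis trap glucose in the cell, rearrange it and split it. The enzymes of these steps had log2 fold changes from -0.23 to 0.46, the second Aldoa row apart, and none was called. Gpi1 (chromosome 7, 34201330 to 34230336), which turns glucose phosphate into fructose phosphate, had 1610.0, 1162 and 1299 CPM in RT_ICI replicates 1, 2 and 4, against 990.5, 1098 and 868 CPM in ICI replicates 1, 2 and 3. All RT_ICI libraries lay above all ICI libraries, the nearest pair being RT_ICI replicate 2 and ICI replicate 2. The log2 fold change was 0.46 (SE 0.17, adjusted p = 0.116). Aldoa (chromosome 7, 126795234 to 126800751), the main aldolase of muscle and of many tumours, had 3722, 3110.3 and 3342 CPM in RT_ICI, against 2590.2, 2994 and 2188 CPM in ICI. Its groups did not overlap either, and its log2 fold change was 0.39 (SE 0.17, adjusted p = 0.159), or 0.03 after a correction for transcript length and GC content. The second Aldoa row (chromosome 7, 126800790 to 126809108) had 0.532, 0.383 and 0.0933 CPM in RT_ICI, against 0.575, 0.705 and 0.836 CPM in ICI (log2 fold change -1.03, SE 0.55, adjusted p = 0.236), so this low row ran against the main one. The hexokinases phosphorylate glucose. Hk1 had 297, 198 and 219 CPM in RT_ICI, against 210.2, 217 and 194 CPM in ICI (log2 fold change 0.20, adjusted p = 0.450), and Hk2 214, 161 and 222 CPM in RT_ICI, against 184, 196 and 199.7 CPM in ICI (0.04, adjusted p = 0.873). In both genes the ICI libraries lay close together and inside the range of the RT_ICI libraries, but for Hk1 in ICI replicate 3. The phosphofructokinases catalyse the committed step. Pfkl had 651, 355 and 411 CPM in RT_ICI, against 515, 514 and 448 CPM in ICI (log2 fold change -0.06, adjusted p = 0.879). Pfkp had 301, 187 and 231 CPM in RT_ICI, against 259, 298 and 284 CPM in ICI (-0.23, adjusted p = 0.425). Pfkm had 101, 77.8 and 71.9 CPM in RT_ICI, against 78.9, 73.1 and 57.4 CPM in ICI (0.26, adjusted p = 0.335). RT_ICI replicate 1 was the highest library for all 3. The same held for Aldoc, the aldolase of brain, with 122, 86.5 and 82.9 CPM in RT_ICI, against 102, 101 and 70.8 CPM in ICI (0.09, adjusted p = 0.785).

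The enzymes from the triose phosphates to lactate, Gapdh apart, had negative fold changes, none of them called, and Pgam1 apart the RT_ICI libraries were far from each other. Pgk1 (chromosome X, 106187100 to 106203699), which makes ATP from bisphosphoglycerate, had 3151, 1386 and 1881 CPM in RT_ICI replicates 1, 2 and 4, against 3067, 2614 and 2553 CPM in ICI. RT_ICI replicate 1 was the highest of the 6 libraries and RT_ICI replicates 2 and 4 the lowest, and the log2 fold change was -0.36 (SE 0.28, adjusted p = 0.408). Ldha (chromosome 7, 46841475 to 46855627), which reduces pyruvate to lactate, had 2211, 1003 and 1283 CPM in RT_ICI, against 1937, 1760.25 and 2003 CPM in ICI. The RT_ICI libraries took the same places as for Pgk1, with the groups overlapping only through RT_ICI replicate 1. The log2 fold change of Ldha was -0.34 (SE 0.28, adjusted p = 0.417). Tpi1 (chromosome 6, 124810586 to 124814296), which interconverts the triose phosphates, had 2119.7, 1247 and 1472 CPM in RT_ICI, against 2228, 1981 and 2107 CPM in ICI, a log2 fold change of -0.38 (adjusted p = 0.240). Eno1 and Pkm, the enolase and the pyruvate kinase, had log2 fold changes of -0.09 and -0.29 (adjusted p = 0.798 and 0.355). Pgam1, the phosphoglycerate mutase, averaged 1130.2 ± 77.6 CPM in RT_ICI and 1342 ± 29.3 CPM in ICI, with no overlap and an adjusted p of 0.235.

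Without RT_ICI replicate 1 the picture of the lower pathway was different. That fit called 5 members lower, namely Pgk1 (log2 fold change -0.75, adjusted p = 0.0391), Ldha (-0.73, 0.0317), Pfkfb3 (-0.68, 0.0293), Tpi1 (-0.63, 0.0374) and Hif1a (-0.63, 0.0251), and 1 higher, Pfkfb4. In the same fit 8.80% of all tested rows were called lower and 8.91% higher. The other members were not called in that fit. Among the enzymes the log2 fold change was 0.01 for Hk1, -0.36 for Pfkl, -0.42 for Pfkp, 0.10 for Pfkm, -0.11 for Aldoc, -0.34 for Eno1 and -0.53 for Pkm. Among the other members it was -0.50 for Epas1, -0.21 for Egln1, -0.18 for Bnip3, -0.27 for Bnip3l and 0.14 for Ndrg1, and the values of Slc16a3, Slc2a1 and Egln3 stand beside their levels. The median log2 fold change of the 15 enzyme genes was -0.27 there, with 5 positive and 10 negative. With the length and GC correction added, 6 members were called lower (Pgk1, Ldha, Tpi1, Eno1, Pkm and Pfkfb3), beside 8.27% of rows, and 1 higher (Pfkfb4), beside 6.34%. In RT_ICI replicate 1 the level of Pgk1 was 1.93 times and that of Ldha 1.93 times the mean of RT_ICI replicates 2 and 4, that of Pfkl 1.70 times and that of Eno1 1.57 times. Skeletal muscle markers, genes of a tissue rich in glycolytic enzymes, held 0.259%, 0.135% and 0.00252% of counts in RT_ICI replicates 1, 2 and 4, against 0.0282%, 0.0233% and 0.000596% in ICI replicates 1, 2 and 3. They were summed over 14 genes, of which 0 to 2 were at 0 in a library. Macrophage markers were also highest in RT_ICI replicate 1, at 0.0238% of counts against 0.0109% to 0.0156% in the other libraries. By share, adipocyte and neutrophil markers were highest there too. Fibroblast, endothelial and red cell markers were highest in ICI replicate 3, T cell and melanoma in ICI replicate 1, keratinocyte in RT_ICI replicate 2. In CPM, fibroblast, endothelial and keratinocyte markers were highest in RT_ICI replicate 1. The part of any list in the enzyme levels was not tested.

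**Figure D2:**
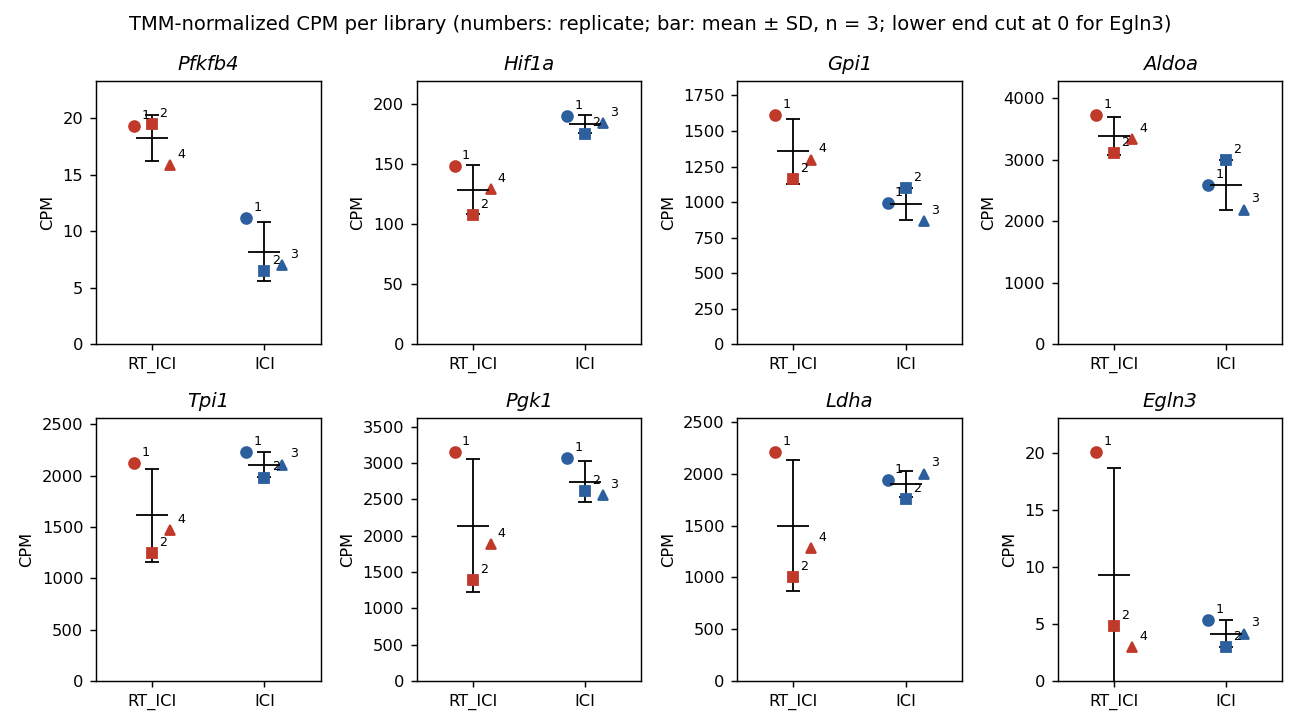
TMM-normalized CPM of 8 genes in each library, RT_ICI left and ICI right, with the replicate number beside each point and the mean ± SD (n = 3) as a bar. Pfkfb4, Hif1a, Gpi1 and Aldoa separate the groups, while Pgk1, Ldha, Tpi1 and Egln3 have RT_ICI replicate 1 far above RT_ICI replicates 2 and 4.

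Gapdh, the enzyme often used as a loading reference, cannot be read from its own row in this table. It had 1259, 1149.8 and 1075 CPM in RT_ICI, against 931, 1127 and 692 CPM in ICI (log2 fold change 0.34, adjusted p = 0.260). The annotation holds 86 other genes with a near-identical stretch of at least 200 bases, and together they held 38.3 to 45.4 times the Gapdh count in RT_ICI libraries and 40.4 to 47.0 times in ICI libraries. In each library 11 to 13 of them exceeded the Gapdh row, and the most abundant, Gm5559, had 5779.7 CPM in RT_ICI replicate 1. The 86 copies held 4.28% to 4.64% of all counts in RT_ICI and 3.61% to 4.77% in ICI, so the groups overlapped. Of 59 copies tested 1 was called higher and 0 lower, beside 4.46% and 4.72% of all tested rows. At an unadjusted p under 0.05 edgeR gave 14 of them higher and 0 lower, beside 15.7% and 15.8%. How reads that fit several places were counted was not stated in the sources used. Near-identical copies also held 13.4% as many counts as Eno1 (Eno1b above all), 11.0% as many as Pgam1, 7.92% as many as Bnip3l and 5.36% as many as Pgk1, and under 5% for each other member.

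Of the HIF subunits and oxygen sensors none was called by edgeR, and Hif1a had the most negative fold change. Hif1a (chromosome 12, 73901375 to 73947530) had 148, 107 and 129 CPM in RT_ICI replicates 1, 2 and 4, against 189.8, 175 and 184 CPM in ICI replicates 1, 2 and 3. Every RT_ICI library lay below every ICI library. The log2 fold change was -0.51 (SE 0.15), with an adjusted p of 0.0636 by edgeR and 0.0626 by limma-voom, which miss the threshold, and of 0.0192 by DESeq2, which passes it. After the length and GC correction the log2 fold change was -0.32 (adjusted p = 0.198). Epas1, the alpha subunit best known from vessels and kidney, had 32.6, 17.0 and 12.8 CPM in RT_ICI, against 21.4, 12.9 and 28.9 CPM in ICI. Its libraries were scattered over the same range in both groups, with a log2 fold change of -0.02 (SE 0.41, adjusted p = 0.981). Egln1, the main hydroxylase that marks HIF for degradation, averaged 131 ± 28.7 CPM in RT_ICI and 136 ± 14.6 CPM in ICI (adjusted p = 0.852). Egln3, a hydroxylase that HIF itself induces, had 20.1, 4.85 and 2.94 CPM in RT_ICI, against 5.32, 2.94 and 4.16 CPM in ICI. Its log2 fold change of 1.17 (SE 0.71, adjusted p = 0.294) was -0.08 without RT_ICI replicate 1.

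The genes that move glucose, lactate and acid across the membrane were not called. Car9, the membrane carbonic anhydrase used as a marker of tumour hypoxia, had 98.4, 67.5 and 121 CPM in RT_ICI, against 139.7, 112 and 98.1 CPM in ICI. The groups overlapped, with a log2 fold change of -0.29 (SE 0.23, adjusted p = 0.410). Slc2a1, the glucose transporter GLUT-1, had 200.003, 108 and 136 CPM in RT_ICI, against 95.3, 127 and 123 CPM in ICI. RT_ICI replicate 2 lay below ICI replicates 2 and 3, and the log2 fold change of 0.36 (SE 0.23, adjusted p = 0.314) was 0.08 without RT_ICI replicate 1. Slc16a3, the lactate exporter of glycolytic cells, was low, at 8.42 ± 4.45 CPM in RT_ICI and 9.58 ± 1.65 CPM in ICI (log2 fold change -0.19, adjusted p = 0.744). RT_ICI replicate 1 held 2.29 times the mean of RT_ICI replicates 2 and 4, and without it the log2 fold change was -0.70 (adjusted p = 0.0792).

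Among the regulators that set how much sugar enters glycolysis and how much pyruvate leaves it, Pfkfb4 was higher in every RT_ICI library. Pfkfb4 (chromosome 9, 108991778 to 109032228) and Pfkfb3 encode enzymes that make and remove the sugar bisphosphate that activates phosphofructokinase. Pfkfb4 had 19.3, 19.5 and 15.9 CPM in RT_ICI replicates 1, 2 and 4, against 11.2, 6.44 and 6.96 CPM in ICI replicates 1, 2 and 3. The lowest RT_ICI library lay above the highest ICI library, and RT_ICI replicate 1 was not apart from the other two. The summed adipocyte markers separated the same libraries, and their part in this difference was not tested. The log2 fold change was 1.16 (SE 0.24, adjusted p = 0.0349), and by limma-voom 1.23 (adjusted p = 0.0365) and by DESeq2 1.16 (adjusted p = 0.000402). It was 1.04 after the length and GC correction (adjusted p = 0.0466) and 1.12 without RT_ICI replicate 1 (adjusted p = 0.0304). Leaving out any 1 of the other 5 libraries kept the log2 fold change between 1.00 and 1.43 and ended the call, with adjusted p of 0.105 without RT_ICI replicate 2, 0.0768 without RT_ICI replicate 4, and 0.137, 0.0729 and 0.114 without ICI replicates 1, 2 and 3. Without ICI replicate 1 or RT_ICI replicate 2, edgeR called 0 genes of the whole table. At an unadjusted p under 0.05 there were 1841 higher and 1860 lower genes in the first of these fits and 2130 higher and 1977 lower in the other.

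The partner gene Pfkfb3 had 51.3, 22.9 and 20.7 CPM in RT_ICI, against 36.4, 29.7 and 39.0 CPM in ICI. RT_ICI replicate 1 was the highest library and RT_ICI replicates 2 and 4 the lowest, with a log2 fold change of -0.15 (SE 0.34, adjusted p = 0.796). Pdk1, the kinase that holds pyruvate back from the mitochondria, was among the steadiest members, at 123, 121 and 119 CPM in RT_ICI, against 101, 120.2 and 115 CPM in ICI. Its log2 fold change was 0.11 (SE 0.12, adjusted p = 0.549).

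**Figure D3:**
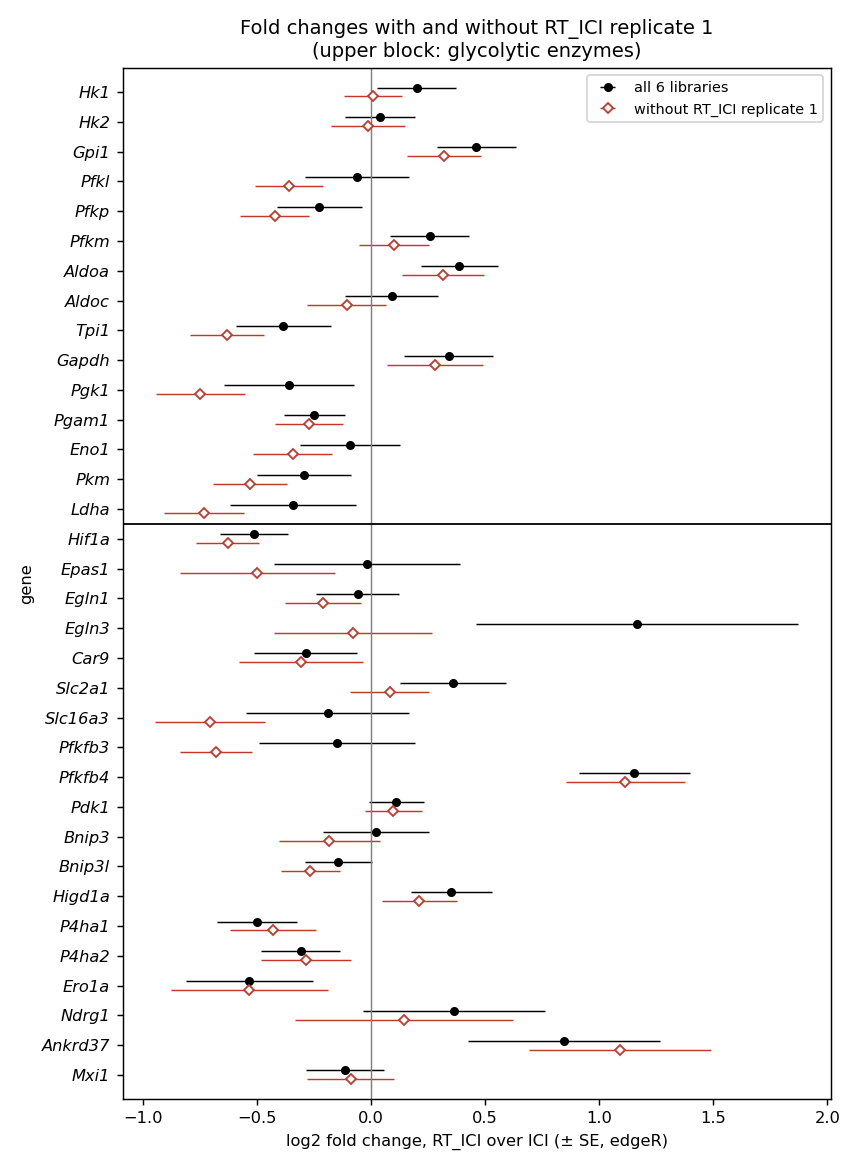
Log2 fold change of RT_ICI over ICI with its SE for each gene, from all 6 libraries (filled circles) and without RT_ICI replicate 1 (open diamonds); the line parts the enzymes, above, from the other genes. Pfkfb4 stays near 1.1 in both fits, while Pgk1 goes to -0.75 and Egln3 to -0.08 when RT_ICI replicate 1 is left out.

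The targets that act on mitochondria were not called. Bnip3, a receptor for the removal of mitochondria, had 171, 89.3 and 145 CPM in RT_ICI, against 116, 150.1 and 133 CPM in ICI. The lowest library of all was RT_ICI replicate 2 and the highest RT_ICI replicate 1, with a log2 fold change of 0.02 (SE 0.23, adjusted p = 0.961). Its relative Bnip3l averaged 127 ± 19.1 CPM in RT_ICI and 140.3 ± 10.6 CPM in ICI (adjusted p = 0.527). Higd1a, a small protein of the inner mitochondrial membrane, had 178, 148 and 124 CPM in RT_ICI, against 103, 139 and 110.3 CPM in ICI, with a log2 fold change of 0.35 (SE 0.18, adjusted p = 0.213). Exons of a gene on the opposite strand cover 22.5% of the exon length of Higd1a, and the strand setting of the counting is not known.

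The targets that modify collagen and form disulfide bonds in the endoplasmic reticulum all had negative fold changes, and none was called. P4ha1, the catalytic subunit of the enzyme that hydroxylates collagen, had 91.9, 90.3 and 124 CPM in RT_ICI, against 140.3, 168 and 125 CPM in ICI. The groups did not overlap, though RT_ICI replicate 4 lay close to ICI replicate 3, and the log2 fold change was -0.50 (SE 0.18, adjusted p = 0.101). P4ha2, its homologue, had 48.7, 43.2 and 59.1 CPM in RT_ICI, against 50.9, 72.9 and 62.9 CPM in ICI, which overlap (log2 fold change -0.31, adjusted p = 0.256). Ero1a, the oxidase that recharges protein disulfide isomerase, had 357, 249 and 463 CPM in RT_ICI, against 389.9, 692 and 465 CPM in ICI, a log2 fold change of -0.53 (SE 0.28, adjusted p = 0.226). By edgeR 0 of these 3 were called, with 1 lower at an unadjusted p under 0.05 (P4ha1), and DESeq2 and limma-voom called 0.

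Of the remaining targets, Ankrd37, an ankyrin-repeat gene strongly induced by hypoxia in cultured cells, had 3.55, 6.24 and 7.23 CPM in RT_ICI, against 1.84, 2.72 and 4.87 CPM in ICI. ICI replicate 3 lay above RT_ICI replicate 1, and the log2 fold change was 0.85 (SE 0.42, adjusted p = 0.205). Exons of genes on the opposite strand cover 26.4% of its length, and no source used here says whether counting was by strand. Ndrg1, a stress-responsive gene, had 155, 63.1 and 143 CPM in RT_ICI, against 60.5, 129 and 90.4 CPM in ICI, which is a wider spread within each group than between their means (adjusted p = 0.558). Mxi1, a repressor that opposes Myc, had a log2 fold change of -0.11 (adjusted p = 0.676).

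Shares of isozymes within a family were taken from counts per kilobase of exon (all annotated exons of a gene). The clearest difference was in the PFKFB pair, where Pfkfb4 made up 36.8%, 56.9% and 54.3% in RT_ICI replicates 1, 2 and 4, against 32.2%, 25.2% and 21.7% in ICI. The lowest share in RT_ICI exceeded the highest in ICI, with means of 49.3% ± 10.9 and 26.4% ± 5.37 (SD, n = 3 each). This is a description of the same counts as the call of Pfkfb4 and no separate support. Pfkm, the muscle form of phosphofructokinase, made up 20.1%, 25.8% and 21.5% of its family in RT_ICI, against 19.7%, 18.1% and 16.3% in ICI, while Pfkl, the liver form, was the largest part at 61.7% ± 3.10 in RT_ICI and 63.8% ± 0.394 in ICI. The Pfkm share was larger in each RT_ICI library than in any ICI library. The muscle markers given above were higher in RT_ICI replicates 1 and 2 than in any ICI library and lower in RT_ICI replicate 4 than in ICI replicates 1 and 2, and their part in this share was not tested. Hk1 made up 45.4% ± 4.29 of the hexokinase pair in RT_ICI and 42.8% ± 2.10 in ICI, Aldoa 97.5% ± 0.343 and 97.0% ± 0.324 of the aldolase pair, and P4ha1 75.4% ± 1.12 and 77.8% ± 2.83 of the prolyl hydroxylase pair. The level of a share depended on the length used. All annotated exons of Pfkp together span 13401 bases, against 4145 for its longest principal coding transcript. With principal coding transcript lengths, an alternative chosen after seeing the data, Pfkp made up 27.3% ± 1.75 of its family in RT_ICI and 30.3% ± 2.75 in ICI, in place of 15.9% ± 1.17 and 18.2% ± 2.02. On these lengths Pfkm was the smallest part, at 12.4%, 16.1% and 13.1% in RT_ICI, against 12.0%, 10.8% and 9.56% in ICI, and its RT_ICI libraries again lay above the ICI libraries. Hk1 was then the larger hexokinase, at 62.9% ± 4.07 in RT_ICI and 60.5% ± 2.07 in ICI, and P4ha1 made up 52.7% ± 1.49 and 56.2% ± 4.05 of its pair. Pfkfb4 made up 45.6% ± 10.7 in RT_ICI and 23.5% ± 4.99 in ICI, again without overlap.

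**Figure D4:**
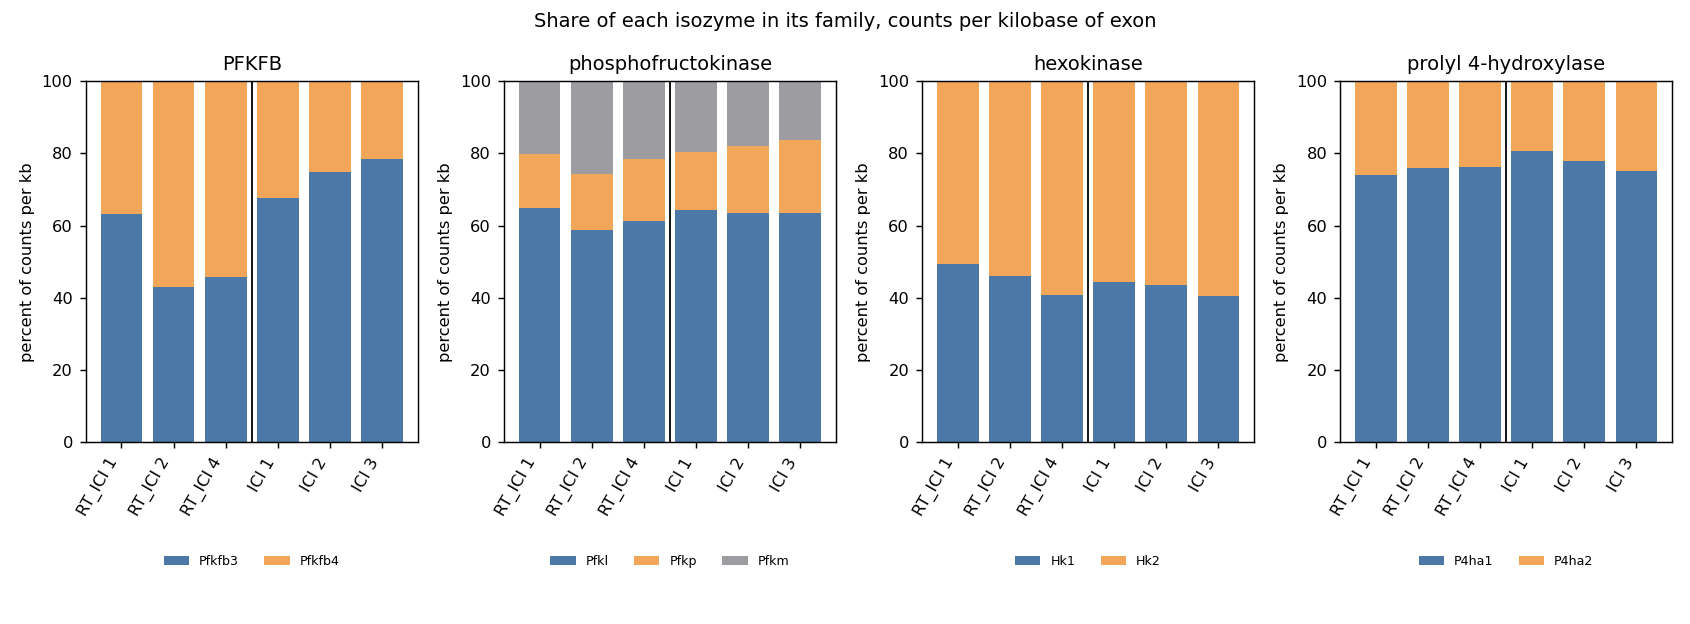
Share of each isozyme in its family, in percent of counts per kilobase of exon, for each library, RT_ICI left and ICI right of the line. Pfkfb4 takes 36.8% to 56.9% of its pair in RT_ICI and 21.7% to 32.2% in ICI, while the hexokinase and prolyl 4-hydroxylase shares overlap between the groups; the height of the Pfkp, Hk1 and P4ha1 parts depends on the length used.

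Per kilobase of exon the most abundant members were glycolytic enzymes. Gapdh is left out of the order, because its near-identical copies held 32552 to 52581 CPM per library and its own row cannot be read. Aldoa averaged 1165 CPM per kb in RT_ICI and 890.0 in ICI, Pgk1 953 in RT_ICI and 1223 in ICI, and Eno1 872 in RT_ICI and 929 in ICI. Hif1a stood at 21.8 CPM per kb in RT_ICI and 31.0 in ICI, well above Epas1 at 3.72 in RT_ICI and 3.77 in ICI. Pfkfb4 was among the least abundant members, at 3.73 CPM per kb in RT_ICI and 1.68 in ICI. Per kilobase of principal coding transcript, Gapdh again apart, Eno1 came first, at 2313 CPM per kb in RT_ICI and 2465 in ICI. Aldoa stood at 2244 in RT_ICI and 1715 in ICI.

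Other genes of these pathways came from lists that share Slc2a3, Gys1 and Gbe1, and 8 of them were called. The counts of each list below are to be read beside the shares over all tested rows. For edgeR these were 4.46% called higher and 4.72% lower, and 15.7% and 15.8% at an unadjusted p under 0.05. They were 10.3% and 10.1% for DESeq2, and 3.75% and 4.08% for limma-voom. Of 38 tested hypoxia targets outside the 34 genes, 3 were called higher and 0 lower by edgeR (at an unadjusted p under 0.05, 7 and 9), 7 higher and 5 lower by DESeq2, and 2 higher and 0 lower by limma-voom. Adm, which encodes the vasodilator adrenomedullin, had 77.8, 58.6 and 72.1 CPM in RT_ICI, against 32.9, 36.2 and 41.5 CPM in ICI (log2 fold change 0.91, SE 0.15, adjusted p = 0.0266). Ppfia4, a liprin, had 5.50, 4.76 and 3.55 CPM in RT_ICI, against 1.18, 1.38 and 1.09 CPM in ICI (log2 fold change 1.92, SE 0.30, adjusted p = 0.0260). Hilpda, a lipid-droplet protein, had 68.1, 32.8 and 74.7 CPM in RT_ICI, against 18.3, 24.5 and 29.1 CPM in ICI (log2 fold change 1.29, SE 0.32, adjusted p = 0.0490). For all 3 genes every RT_ICI library lay above every ICI library, as for 17.8% of all tested rows. The summed adipocyte markers did so too, with RT_ICI replicate 2 the lowest of its group as for Adm and Hilpda. The part of these markers in the levels was not tested. Adm and Ppfia4 were also called without RT_ICI replicate 1, while Hilpda was not (adjusted p = 0.0893). With any other library left out, Adm was not called (adjusted p from 0.0535 to 0.142). After the length and GC correction the adjusted p was 0.0471 for Adm and 0.0887 for Hilpda. Of all 8 called genes of the lists, 7 were still called without RT_ICI replicate 1, 2 without RT_ICI replicate 4, 3 without ICI replicate 2, and 0 without RT_ICI replicate 2 or ICI replicates 1 or 3. The largest differences of the list without a call were those of Vldlr, a lipoprotein receptor (log2 fold change 3.69, adjusted p = 0.0617), and Ppp1r3c, a glycogen-targeting phosphatase subunit (2.62, adjusted p = 0.119).

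Of 12 tested genes of the HIF pathway itself, 1 was called higher and 0 lower by edgeR (at an unadjusted p under 0.05, 5 and 3), 4 higher and 3 lower by DESeq2, and 1 and 0 by limma-voom. Elob, the elongin B subunit of the Vhl ubiquitin ligase, had 236, 297 and 289 CPM in RT_ICI, against 149, 201 and 139 CPM in ICI (log2 fold change 0.75, adjusted p = 0.0431), and the log2 fold change was 0.24 after the length and GC correction (adjusted p = 0.336). Hif3a, a further alpha subunit, had the largest log2 fold change without a call, 1.92 (adjusted p = 0.0988), at 1.38 to 2.85 CPM in RT_ICI and 0.146 to 1.11 CPM in ICI.

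Of 18 other tested glycolysis genes 1 was called in each direction. Eno3, the muscle enolase, had 74.9, 70.6 and 47.7 CPM in RT_ICI, against 33.8, 37.5 and 27.3 CPM in ICI (log2 fold change 0.97, SE 0.20, adjusted p = 0.0346). Slc16a1, a carrier of lactate and pyruvate, was lower, at 65.2, 59.99 and 69.0 CPM in RT_ICI, against 93.0, 99.5 and 116 CPM in ICI (log2 fold change -0.67, SE 0.13, adjusted p = 0.0328). Both calls also stood without RT_ICI replicate 1. The length and GC correction took their adjusted p to 0.0589 (Eno3) and 0.0652 (Slc16a1). Slc2a4, the insulin-responsive glucose transporter of muscle and fat, had 16.8, 9.22 and 2.29 CPM in RT_ICI, against 0.604, 1.81 and 1.13 CPM in ICI (log2 fold change 2.99, adjusted p = 0.0519). The summed muscle markers had the same order within RT_ICI but were lower in RT_ICI replicate 4 than in ICI replicates 1 and 2. The summed adipocyte markers were higher in every RT_ICI library than in any ICI library. The part of either in this level was not tested.

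The branches around glycolysis gave 2 calls in 41 tested genes. Rpe, an epimerase of the pentose phosphate pathway, was lower at 20.2, 24.4 and 27.4 CPM in RT_ICI, against 42.5, 38.6 and 47.6 CPM in ICI (log2 fold change -0.84, SE 0.16, adjusted p = 0.0312), the 1 call among 7 genes. Pygb, the brain form of glycogen phosphorylase, was lower at 62.0, 48.2 and 56.8 CPM in RT_ICI, against 96.9, 81.7 and 90.6 CPM in ICI (log2 fold change -0.69, SE 0.14, adjusted p = 0.0339), the 1 call among 9 genes of glucose synthesis and glycogen. Its counterpart in muscle, Pygm, had 70.2, 43.2 and 16.5 CPM in RT_ICI, against 9.66, 10.01 and 3.66 CPM in ICI (log2 fold change 2.48, adjusted p = 0.0602). Of 25 genes of pyruvate entry and the citric acid cycle edgeR called 0 (at an unadjusted p under 0.05, 4 higher and 1 lower), DESeq2 called 4 higher and 0 lower, and limma-voom 0. The kinase gene Pdk4 of that list had 66.5, 12.3 and 3.08 CPM in RT_ICI, against 3.48, 2.77 and 0.272 CPM in ICI (log2 fold change 3.67, adjusted p = 0.164), and its log2 fold change was 1.84 without RT_ICI replicate 1.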

How the data were processed

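The authors deposited 1 table of whole-number counts per gene for the 6 libraries, from total RNA of harvested tumours. Per the submitters' processing notes, reads were aligned with HISAT2 and the builds named were GRCm38 and mm10; the counting tool, strand setting, annotation and versions are not stated there and were not given in other sources used. A total of 83 rows had no symbol. Counts were compared with edgeR 4.0.16 (filterByExpr, TMM, robust quasi-likelihood test) in R 4.3.3, with Benjamini-Hochberg adjustment over 16924 rows, and the fit was tested on simulated data. DESeq2 1.42.0, limma-voom (limma 3.58.1), other scalings and filters, the replicate number as a block, a per-library spline correction for transcript length and GC content, and leaving out each library were tried. Per-library deviations used a pseudocount of 0.5 CPM. Positions and lengths came from GENCODE M21 on GRCm38, near-identical stretches (at least 200 bases at 95% identity) from blastn 2.17.0, and promoter windows from RefSeq on GRCm38.p6. The 95% Wilson interval of a share of counts reached at most 0.00561 percentage points to either side and covers counting error only.

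The 34 genes and all lists were chosen with earlier results of these data known. Full values were given to members called, to a fixed set of HIF and glycolysis genes, to the member of largest change in each role group and to isozymes with shares; of each other list, called genes and up to 2 with the largest change at a mean of at least 1 CPM were named. Gpi1, Tpi1, Gapdh, Ndrg1 and Gm5559 were added after their values were seen.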

Additional observations from a re-analysis of the deposited data

How the results depend on the processing

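Counts of calls depended on the tool and on single libraries. Over all tested rows 754 were called higher and 799 lower, against 1746 and 1703 with DESeq2, 260 and 411 with the length and GC correction, and 0 to 1564 higher and 0 to 1545 lower when 1 library was left out. With the correction and without RT_ICI replicate 1, 1452 were lower. With no filter on low counts 1507 were lower, and with upper-quartile scaling 497. The replicate number as a block gave 400 higher and 245 lower, and the block with the length and GC correction 135 and 76. In both of these fits 0 members were called higher, in place of 1, and Pfkfb4 had log2 fold changes of 1.19 and 1.08 (adjusted p = 0.0576 and 0.104). The groups share only the numbers 1 and 2, and deviations of same-numbered libraries correlated at 0.353 and 0.0909, so the numbers were not taken as a pairing. Members called higher lay between 0 and 1 when 1 library was left out, and members called lower between 0 and 5. Members called lower were 1 with DESeq2 (Hif1a), 2 with no filter (Hif1a and P4ha1), and 6 with the correction and without RT_ICI replicate 1 (Pfkfb3, Pgk1, Eno1, Tpi1, Ldha and Pkm), where the median log2 fold change of the enzymes was -0.36. The log2 fold changes of 15 of the 35 member rows changed sign under some alternative, 11 of them when 1 library was left out, and those of the 14 other genes described by name did not. When 1 library was left out the log2 fold change lay between -0.50 and 0.27 for Epas1, -0.18 and 0.26 for Bnip3, -0.041 and 0.18 for Hk2, -0.36 and 0.12 for Pfkl, -0.11 and 0.20 for Aldoc, -0.34 and 0.085 for Eno1, -0.21 and 0.11 for Egln1, -0.079 and 1.59 for Egln3, -0.70 and 0.087 for Slc16a3, -0.68 and 0.084 for Pfkfb3, and -0.25 and 0.018 for Mxi1. With upper-quartile scaling it was 0.076 for Epas1, 0.032 for Pfkl and 0.031 for Egln1. With a minimum of 1 CPM in 3 libraries Epas1 was 0.019. With no filter Bnip3 was -0.041 and Hk2 -0.016, and with limma-voom Bnip3 was -0.016. With the block Epas1 was 0.50, Bnip3 -0.098, Hk2 -0.034 and Pfkfb3 0.063. With the correction Epas1 was 0.039, Bnip3 -0.018 and Mxi1 0.0099. With block and correction Epas1 was 0.55, Bnip3 -0.12, Pfkfb3 0.13, Aldoa -0.038 and Aldoc -0.044. With the correction and without RT_ICI replicate 1 Bnip3 was -0.22, Egln3 -0.12, Slc2a1 -0.0065, Hk1 -0.080, Pfkm -0.027, Aldoc -0.15 and Mxi1 0.037. The causes of these changes were not tested. With 3 libraries a group, genes at a few CPM such as Egln3 and Ankrd37 carry the widest errors.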
